A study of Homo sapiens with 13 samples.

Results

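Autophagy and lysosome genes were described in 13 acute lymphoblastic leukemia (ALL) cell lines. They were taken by name: the ATG genes, MAP1LC3 and GABARAP genes, the LAMP genes, the V-ATPase subunits (ATP6V), the cathepsins, and TFEB, TFE3, SQSTM1, ULK1, ULK2, BECN1, WIPI1 and WIPI2. The table named 74 such genes, covered by 159 probe sets, of 18568 genes in all. Each gene was read from the probe set with its highest mean. A gene was tested when that probe set exceeded the array median in 3 or more lines, which 63 of the 74 genes and 12560 of the 18568 did.

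The lines were 6 of B-cell precursor ALL (BCP-ALL: 697, Nalm6, REH, RS4,11, Nalm16 and Nalm30) and 7 of T-cell ALL (T-ALL: TALL-1, P12-ICHIKAWA, Jurkat, HPB-ALL, Molt4, CCRF-CEM and ALL-SIL). The line labelled RS4,11 is usually written RS4;11. All were established human leukemia lines, grown without drug in serum-containing RPMI medium for 30 h, and RNA of 1 culture of each was hybridised to 1 array. The values were log2 probe set signals to which 16 had been added, so that 4 is the lowest possible level, and a level within 1 unit of it is called near the floor. A difference of 1 log2 unit is a 2-fold difference.

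In autophagy, a membrane sheet called the phagophore grows around cytoplasm, closes, and fuses with the lysosome. Small ATG8 proteins (the LC3 and GABARAP families) are attached to that membrane by a conjugation machinery, and receptors such as the SQSTM1 product p62 bind them and the cargo. The lysosome is acidified by the V-ATPase, is lined by LAMP glycoproteins and digests proteins with cathepsins. Many of these genes carry binding sites of the transcription factors TFEB and TFE3.

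The lineage labels were borne out by marker genes. All 9 B-lineage markers measured were higher in BCP-ALL and 9 of 10 T-lineage markers were higher in T-ALL by limma at an adjusted p of 0.05. Pairs of arrays correlated at r = 0.770 to 0.993 over all 42450 probe sets. P12-ICHIKAWA and TALL-1 (0.993) and Nalm16 and Nalm30 (0.959) were the closest pairs, and Nalm16 and Nalm30 were the arrays least like the rest. For the genes called between lineages, and for some others, values without a pair are therefore given too. The arrays were of whole cultures, in which a smaller share of expressing cells and less RNA per cell cannot be told apart.

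Of the 63 genes tested, 6 differed between the lineages by limma with Benjamini-Hochberg adjustment over all 12560 genes, or 9.52%, beside 7.63% of all genes tested. CTSW, LAMP3, ATP6V1G2 and ATG16L2 were higher in T-ALL (6.35%, beside 3.96% of all genes). CTSS and ATP6V0D1 were higher in BCP-ALL (3.17%, beside 3.67%). At an unadjusted p of 0.05, 25 of the 63 (39.7%) differed, beside 25.3% of all genes. Without Nalm16 and Nalm30 the adjusted calls fell to CTSW and CTSO, 2 of 63 (3.17%, beside 5.32% of all genes), and 12 of 63 had an unadjusted p of 0.05 or less, beside 18.7% of all genes. CTSW was the 1 gene called without P12-ICHIKAWA and TALL-1 (beside 3.46% of all genes) and also with each pair averaged into 1 sample (beside 3.76%). The median difference, T-ALL minus BCP-ALL, was 0.02 log2 units over the 63 genes and 0.03 over all genes tested.

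**Figure D1:**
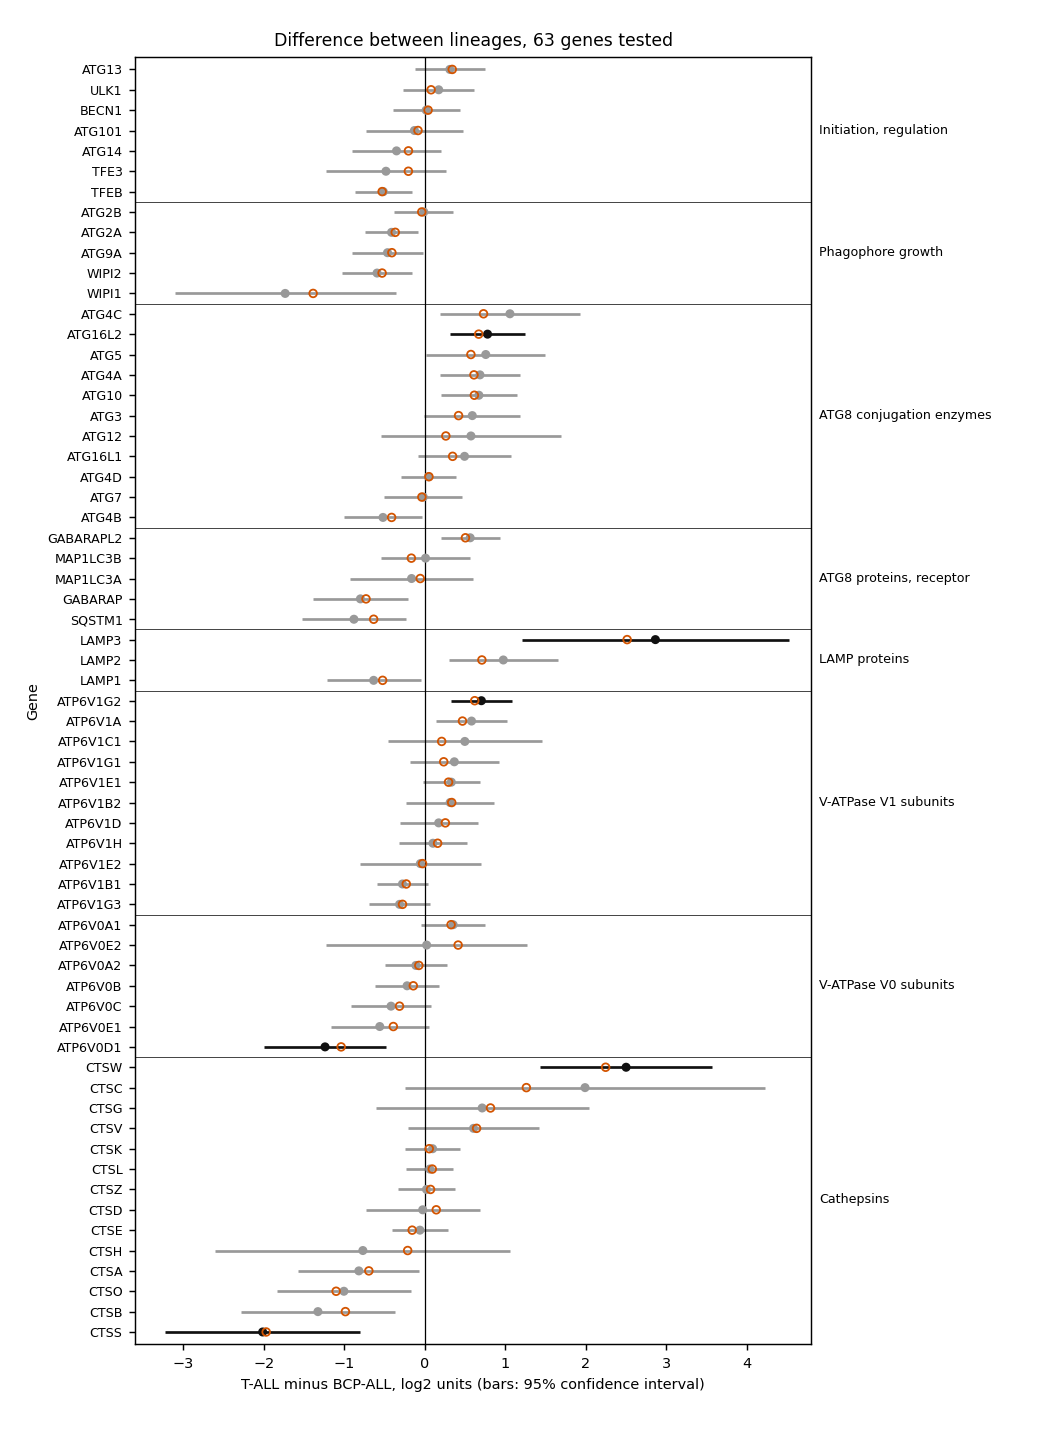
T-ALL minus BCP-ALL difference in log2 units (x axis) of the 63 genes tested, ordered by role and then by size. Filled points are the limma estimates with 95% confidence intervals (6 BCP-ALL and 7 T-ALL lines), black where the adjusted p was 0.05 or less and grey otherwise, and open orange circles are the estimates with P12-ICHIKAWA and TALL-1 averaged and Nalm16 and Nalm30 averaged. The 6 black genes are ATG16L2, LAMP3, ATP6V1G2, ATP6V0D1, CTSW and CTSS.

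The genes of autophagy initiation and its regulation, TFEB and TFE3 included, mostly varied little between lines. The 7 tested had a median standard deviation (SD) of 0.367 over the 13 lines, beside 0.523 for all genes tested, and 1 of the 7 exceeded the latter. None passed the test between lineages by limma, while 1 (TFEB) had an unadjusted p of 0.05 or less. ULK1, the kinase that starts the process, ranged from 5.70 in CCRF-CEM to 6.79 in TALL-1, and BECN1, a subunit of the lipid kinase complex that marks the growing membrane, from 8.10 in 697 to 9.10 in Jurkat. For both genes the BCP-ALL and T-ALL ranges overlapped.

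TFEB and TFE3 are the factors that switch on lysosome genes, and they followed different lines. TFEB ran from 6.28 to 6.89 in BCP-ALL (median 6.51) and from 5.73 to 6.47 in T-ALL (median 5.95). It was lower in T-ALL by 0.52 on average, with the lineages overlapping, and missed the threshold (limma difference -0.52, SE 0.165, adjusted p 0.0741). The other TFEB probe set had a larger difference, -1.42, and when the most variable probe set of each gene was used TFEB passed (adjusted p 0.0239). TFE3 was highest in Nalm30 (9.14) and Nalm16 (8.93), beside 6.95 to 8.19 in the other 11 lines, and its lineage difference was -0.48 (SE 0.347, adjusted p 0.390).

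The 5 tested genes of phagophore growth all had lower means in T-ALL, as did 47.0% of all genes tested, and none passed the adjusted test. ATG9B, which was not tested, had a difference of 0.18. The median difference of the 5 tested was -0.47. Of them, 4 (ATG2A, ATG9A, WIPI1 and WIPI2) had an unadjusted p of 0.05 or less by limma, beside 25.3% of all genes. WIPI1 exceeded the array median in 5 BCP-ALL lines and 1 T-ALL line. It thus met the filter through BCP-ALL, where it was high, and its p is no support for a share among the genes tested. Without Nalm16 and Nalm30 all 5 were still lower in T-ALL (median -0.36). ATG2A alone then kept such a p (0.0338 by limma), beside 18.7% of all genes, with 0.0958 for ATG9A, 0.127 for WIPI1 and 0.0694 for WIPI2. The other WIPI2 probe sets had differences from -0.23 to 0.27. WIPI1, a reader of the lipid that marks the phagophore, had the widest range. In BCP-ALL it ran from 4.75 in RS4,11 to 8.30 in Nalm16, with a median of 7.43. In T-ALL it lay between 4.52 and 5.13 in 6 lines and reached 7.59 in ALL-SIL. WIPI1 was thus high in Nalm16, Nalm30, 697, Nalm6 and ALL-SIL and near the floor in 5 lines, and both of its probe sets showed this order (r = 0.99). The difference of -1.74 (SE 0.639) missed the threshold, with an adjusted p of 0.115 by limma, and was -1.09 without Nalm16 and Nalm30.

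The conjugation enzymes went the other way, with 9 of 11 higher on average in T-ALL, beside 53.0% of all genes, and a median difference of 0.59. Without Nalm16 and Nalm30, 7 of 11 were higher and the median was 0.17. ATG16L2, a homologue of the scaffold ATG16L1, was the 1 that passed. Its level was 4.61 to 5.87 in BCP-ALL (median 5.64) and 5.85 to 6.55 in T-ALL (median 6.19). CCRF-CEM overlapped with REH and RS4,11, and Nalm16 (4.61) and Nalm30 (5.06) were lowest. The difference was 0.78 (SE 0.217, adjusted p 0.0445), or 1.72-fold, and without Nalm16 and Nalm30 it was 0.47 with an adjusted p of 0.105. The other ATG16L2 probe set gave a difference of 0.05 and correlated with the first at r = 0.37 over 13 lines.

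ATG5, the partner of ATG12 in the conjugate that attaches ATG8 proteins, was low in 3 BCP-ALL lines, Nalm16 (7.24), 697 (7.43) and Nalm30 (7.60), and lay between 8.24 and 9.47 in the other 10 lines. Its lineage difference was 0.76 (SE 0.344, adjusted p 0.189). ATG12 was 5.43 in Nalm16 and 6.22 in Nalm30, and 7.85 to 8.86 elsewhere. ATG4C, a protease that processes ATG8 proteins, was 5.24 and 5.01 in the same lines, and 6.86 to 7.95 elsewhere. ATG7, the enzyme that activates both ATG12 and ATG8 proteins, ranged from 5.25 in HPB-ALL to 6.61 in Jurkat and had a difference of -0.02 (SE 0.226).

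None of the 5 ATG8 and receptor genes tested passed by limma, and GABARAP, SQSTM1 and GABARAPL2 had an unadjusted p of 0.05 or less. GABARAP was 10.17 to 11.40 in BCP-ALL (median 10.49) and 9.06 to 10.23 in T-ALL (median 10.13), lowest in HPB-ALL and ALL-SIL and highest in Nalm16 and Nalm30. The limma difference was -0.80 (SE 0.274, adjusted p 0.0927). SQSTM1 was 9.60 in Nalm16 and 9.76 in Nalm30, and 7.43 to 8.58 in all other lines. Its difference was -0.88 (SE 0.302, adjusted p 0.0932), and -0.42 without these 2 lines. MAP1LC3A, an LC3 gene, was also high in them (6.43 and 6.01, beside 4.22 to 5.67). MAP1LC3B, the LC3 gene most used as an autophagy marker, was instead lowest in them (7.93 and 8.57, beside 8.66 to 9.48), with a lineage difference of 0.01 (SE 0.255).

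**Figure D2:**
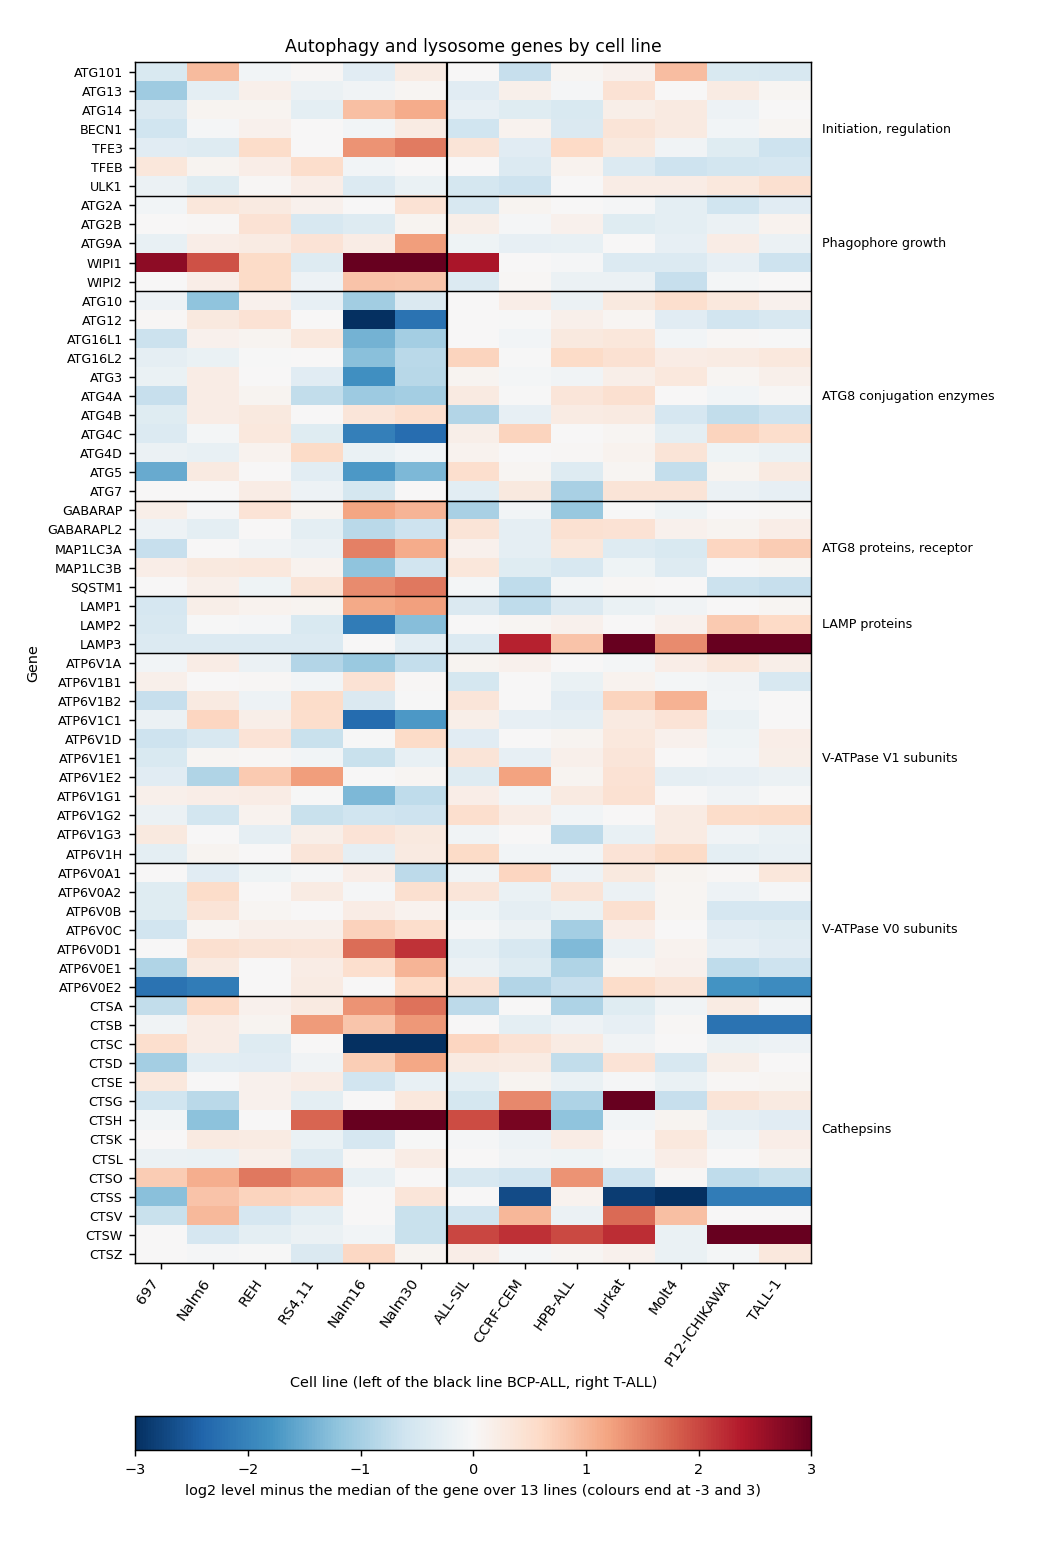
Level of the 63 genes tested in each of the 13 lines, as log2 level minus the median of that gene over the lines (colour scale ending at -3 and 3), grouped by role, with BCP-ALL lines left of the black line. Nalm16 and Nalm30 have dark fields for CTSC, ATG12 and ATP6V1C1 (low) and for CTSH and WIPI1 (high), and LAMP3 and CTSW are high in most T-ALL lines.

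The LAMP genes included one member high in T-ALL and one high in 2 BCP-ALL lines. LAMP3, a LAMP protein known from mature dendritic cells and from interferon and stress responses, did not rise above 4.41 in any BCP-ALL line and was at the floor of 4 in most. In T-ALL it was also at 4 in ALL-SIL, 5.27 in HPB-ALL, 5.84 in Molt4, 6.71 in CCRF-CEM, 8.30 in Jurkat, 9.07 in P12-ICHIKAWA and 9.45 in TALL-1. It was thus above every BCP-ALL line in all T-ALL lines but ALL-SIL. The difference was 2.86 (SE 0.772, adjusted p 0.0382), on a scale that the floor compresses. It was 1.94 with an adjusted p of 0.114 without P12-ICHIKAWA and TALL-1.

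LAMP5, a LAMP relative known from neurons and plasmacytoid dendritic cells, was 12.78 in 697 and 11.68 in RS4,11. In the other 11 lines it lay between 4.22 and 4.39. It was above its array's median in these 2 lines alone and so was not tested. LAMP1, a major glycoprotein of the lysosomal membrane, was highest in Nalm30 (11.67) and Nalm16 (11.58), beside 9.68 to 10.61 in the other lines, with a lineage difference of -0.64 (SE 0.271, adjusted p 0.164). With all probe sets of each gene averaged it was -0.79 and passed (adjusted p 0.0400), and without Nalm16 and Nalm30 it was -0.23.

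LAMP2 was the 1 gene of the 63 (1.59%, beside 3.69% of all genes tested) whose lineages did not overlap, and its probe sets fell into sets with different orders over the lines. The probe set used, annotated to the transcript of isoform B, ran from 7.25 in Nalm16 to 9.34 in Nalm6 in BCP-ALL (median 8.88) and from 9.35 to 10.13 in T-ALL (median 9.48). The gap between the lineages was small, since Nalm6, REH and most T-ALL lines lay close together. The limma difference was 0.97 (SE 0.316, adjusted p 0.0777). With all probe sets of each gene averaged it was 0.86 and passed (adjusted p 0.00904). Without Nalm16 and Nalm30 it was 0.49 (adjusted p 0.183), and with each pair averaged 0.71 (adjusted p 0.231).

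A second probe set, annotated to the transcript of isoform A, the receptor of chaperone-mediated autophagy, had another order. It was 7.01 in Nalm16 and 7.72 in Nalm30, above the 5.84 to 6.63 of the other 4 BCP-ALL lines, and 6.76 to 7.76 in T-ALL. Its correlation with the first probe set was r = 0.12 over the 13 lines, and that of the third probe set, which followed it closely, was 0.01. The fourth correlated with the first at 0.73. Nalm16 and Nalm30 were thus the lowest BCP-ALL lines by the first and the highest by the second.

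**Figure D3:**
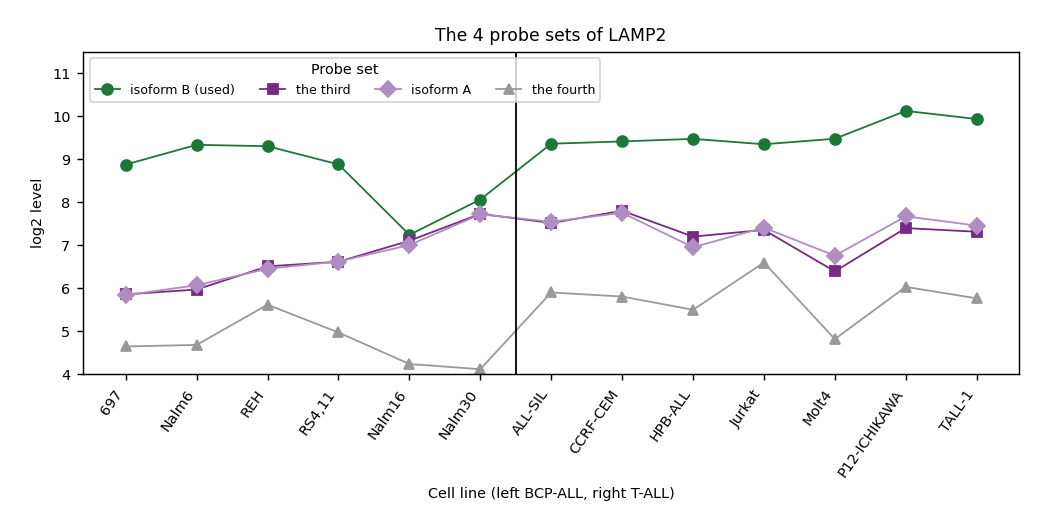
Log2 level (y axis) of the 4 LAMP2 probe sets in each line (x axis, BCP-ALL left of the black line), 1 array per line. In Nalm16 and Nalm30 the probe set used (isoform B) lies at 7.25 and 8.07, below the other BCP-ALL lines, while that of isoform A and the third lie above them, and levels of different probe sets cannot be compared with one another.

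The V-ATPase subunits had a median SD of 0.455 for V1 and 0.454 for V0, beside 0.523 for all genes tested. Of the V1 subunits 2 of 11 were above that all-gene value, and of the V0 subunits 3 of 7. ATP6V0E2, a V0 subunit, varied most, from 6.44 in 697 to 9.26 in Nalm30, with a lineage difference of 0.02. Of 11 V1 (cytosolic, ATP-splitting) subunits tested, ATP6V1G2 passed. It is the brain-type isoform of the G subunit and its level was low throughout, 4.54 to 5.31 in BCP-ALL (median 4.64) and 5.13 to 5.78 in T-ALL (median 5.45), with REH inside the T-ALL range. It entered the fit through 5 T-ALL lines and no BCP-ALL line. The difference was 0.70 (SE 0.175, adjusted p 0.0270), and it had an adjusted p of 0.100 without Nalm16 and Nalm30 and 0.136 without P12-ICHIKAWA and TALL-1. ATP6V1A, the catalytic subunit, was 7.80 to 9.12 in BCP-ALL (median 8.46) and 8.84 to 9.24 in T-ALL (median 9.03), a difference of 0.58 (SE 0.207, adjusted p 0.106). ATP6V1C1 was 6.16 in Nalm16 and 6.75 in Nalm30, and 8.18 to 9.10 elsewhere.

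Of 7 V0 (membrane, proton-carrying) subunits tested, ATP6V0D1, which lies between the membrane and cytosolic sectors of the pump, passed. It was 8.57 to 10.75 in BCP-ALL (median 8.998) and 7.24 to 8.66 in T-ALL (median 8.29). Nalm30 (10.75) and Nalm16 (10.25) were highest, HPB-ALL (7.24) was lowest, and Molt4 (8.66) lay above 697 (8.57). The difference was -1.24 (SE 0.353, adjusted p 0.0483), or 2.36-fold, and -0.70 with an adjusted p of 0.124 without Nalm16 and Nalm30. ATP6V0C, a subunit of the proton-carrying ring, had a difference of -0.42 (SE 0.232, adjusted p 0.269).

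The cathepsins varied widely. Their median SD was 0.825, and 10 of the 14 tested were above the all-gene median. The 3 tested LAMP genes had a median SD of 0.762, and all 4 LAMP genes, untested LAMP5 included, 1.42. CTSW, cathepsin W, is a protease known from cytotoxic T cells and natural killer cells. Every BCP-ALL line lay near the floor, at 4.25 to 4.91 (median 4.68). In T-ALL it was 4.71 in Molt4, 6.89 in HPB-ALL, 6.93 in ALL-SIL, 7.12 in CCRF-CEM, 7.14 in Jurkat, 8.53 in P12-ICHIKAWA and 8.55 in TALL-1. Molt4 thus lay within the BCP-ALL range, and the other T-ALL lines lay above it. The difference was 2.50 (SE 0.495, 95% confidence interval 1.43 to 3.57, adjusted p 0.00735), again against levels near the floor. CTSW passed with any 1 line left out, without Nalm16 and Nalm30 (2.45, adjusted p 0.0378), without P12-ICHIKAWA and TALL-1 (1.93, adjusted p 0.0222) and with each pair averaged (2.25, adjusted p 0.0344). CTSW, LAMP3 and ATP6V1G2 entered the fit through T-ALL lines alone, since no BCP-ALL line exceeded its array median, so their calls are no support for a share among the genes tested. CTSS and CTSO each exceeded the array median in 6 BCP-ALL and 2 T-ALL lines. They thus met the filter through BCP-ALL, where they were high, and their calls are no such support either. With all 18568 genes fitted, CTSW and ATP6V1G2 kept their calls (adjusted p 0.0129 and 0.0248) and LAMP3 had an adjusted p of 0.0595. ATG16L2, CTSS and ATP6V0D1 also lost their calls in that fit (adjusted p 0.0521, 0.0678 and 0.0677).

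CTSS, cathepsin S, which trims the invariant chain in antigen-presenting cells, was 5.76 to 7.87 in BCP-ALL (median 7.52). In T-ALL it was 7.02 in ALL-SIL and 7.12 in HPB-ALL, and 4.93 or less in the other 5 lines, down to the floor in Molt4. The T-ALL lines thus fell into a pair at the BCP-ALL level and 5 near the floor, and 697 was the lowest BCP-ALL line. All 3 probe sets showed this order (r of 0.96 and above with the one used). The difference was -2.02 (SE 0.564, adjusted p 0.0449), taken against T-ALL lines of which 5 were near the floor, with an adjusted p of 0.126 without Nalm16 and Nalm30 and 0.164 without P12-ICHIKAWA and TALL-1.

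**Figure D4:**
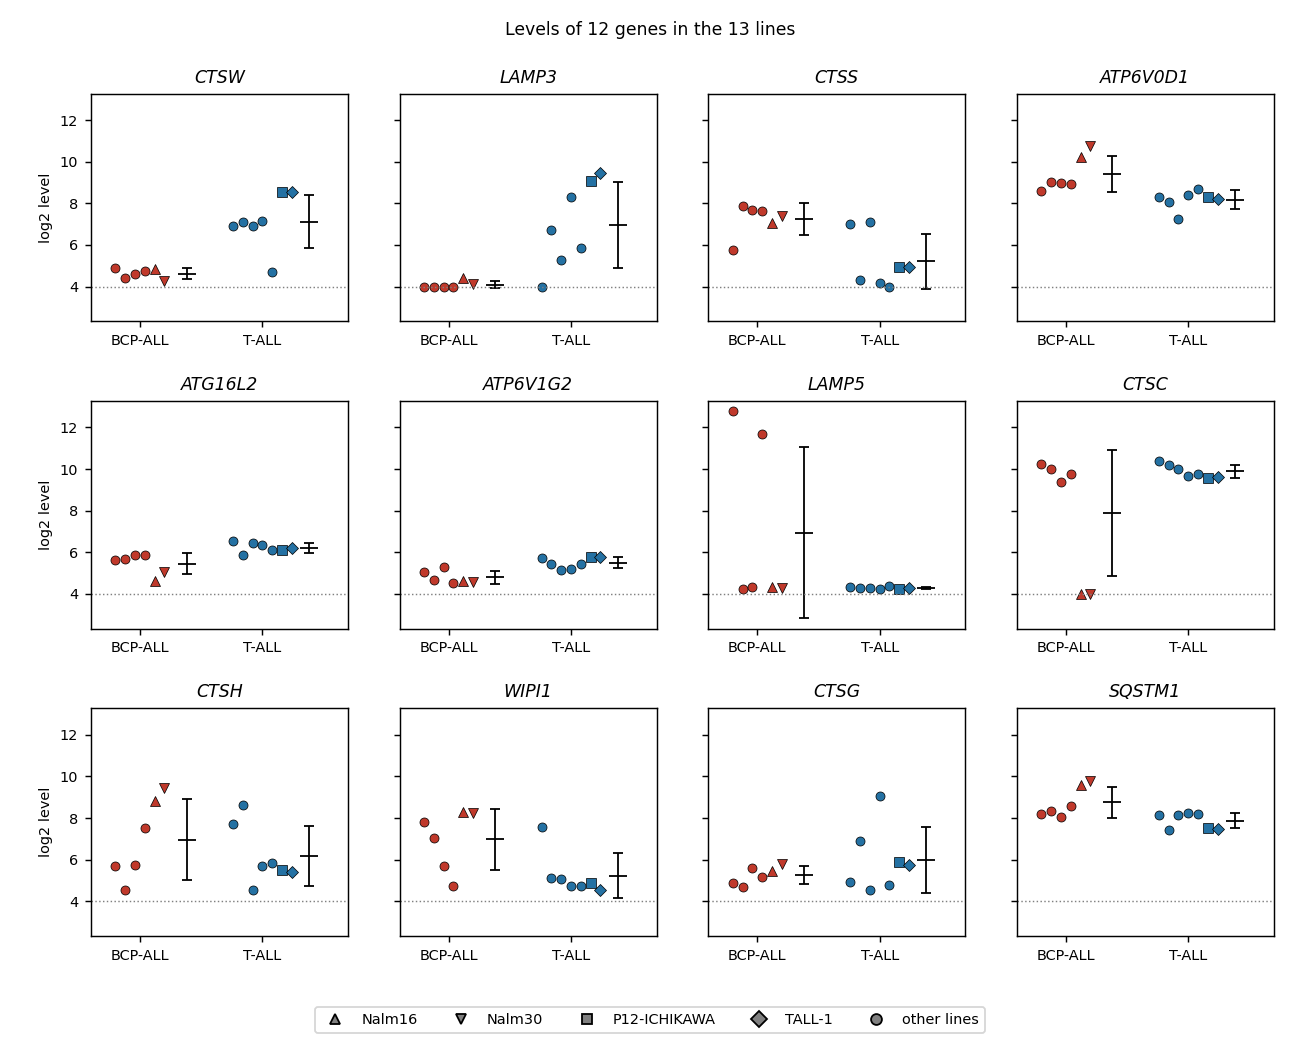
Log2 level (y axis) of 12 genes in each BCP-ALL (red) and T-ALL (blue) line, with the mean and SD of each lineage beside the points (6 and 7 lines) and the floor of 4 dotted. CTSW, LAMP3, ATG16L2 and ATP6V1G2 were called higher in T-ALL and CTSS and ATP6V0D1 in BCP-ALL, CTSC, LAMP5 and CTSG show single lines or pairs far from the rest, and CTSH was 7.50 or higher in 5 lines.

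CTSC, cathepsin C, which activates granule serine proteases, was at the floor of 4 in both Nalm16 and Nalm30. In the other 11 lines it was 9.37 to 10.40. None of the 4 CTSC probe sets exceeded 4.68 in these 2 lines. CTSH, an aminopeptidase, was by contrast highest in Nalm30 (9.44) and Nalm16 (8.83), followed by CCRF-CEM (8.61), ALL-SIL (7.73) and RS4,11 (7.50), and near the floor in Nalm6 (4.54) and HPB-ALL (4.57). The lineage difference of CTSH was -0.77 (SE 0.852, adjusted p 0.594) and turned to 0.32 without Nalm16 and Nalm30.

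CTSB, a broad endosomal and lysosomal protease, was 6.03 in both P12-ICHIKAWA and TALL-1, and 7.94 to 9.55 in the other 11 lines. Its difference of -1.33 (SE 0.445, adjusted p 0.0869) was -0.74 without these 2 lines. CTSD, the main lysosomal aspartic protease, was 8.06 in Nalm30, 7.65 in Nalm16 and 5.89 in 697, the lowest line, and had a difference of -0.03 (SE 0.328). CTSO was the gene that gained a call without Nalm16 and Nalm30, at -1.45 (adjusted p 0.0486), beside -1.01 (adjusted p 0.130) in all lines.

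CTSG, cathepsin G, a serine protease of neutrophil granules, was 9.07 in Jurkat and 6.91 in CCRF-CEM, and 4.55 to 5.87 in the other lines. The genes of the other neutrophil granule proteases measured here, ELANE, PRTN3 and AZU1 (the last an inactive relative), were near the floor in all 13 lines. Of 12 myeloid markers measured, 5 were near the floor in every line, and of the 5 that could be tested none differed between the lineages by limma, also at an unadjusted p of 0.05. LYZ, the lysozyme gene, was 6.27 to 7.90 in 12 lines and 11.2 in Nalm6, and MPO was high in REH alone (12.1). The summed log2 level of the 12 markers was 58.7 to 66.9 in BCP-ALL and 57.5 to 60.04 in T-ALL.

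The 11 genes that were not tested were LAMP5, ATG9B, ULK2, CTSF, GABARAPL1, GABARAPL3 (a transcribed pseudogene), MAP1LC3B2, MAP1LC3C, ATP6V0D2, ATP6V1C2 and ATP6V0E2-AS1, an antisense RNA. By the probe set used, ULK2, MAP1LC3B2 and ATP6V1C2 were near the floor in all 13 lines (another ULK2 probe set reached 5.75 in Nalm6), and all but LAMP5 stayed below 6.3 in every line. GABARAPL1, an ATG8 gene, reached 6.24 in Jurkat and 5.79 in Molt4, beside 4.03 to 5.09 elsewhere, and ATG9B, a relative of the lipid scramblase ATG9A, was highest in Jurkat (5.63).

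Several of the genes above were thus read highest or lowest in Nalm16 and Nalm30. Both lines lay at least 1 log2 unit above the other 4 BCP-ALL lines for 4 of the 63 genes (6.35%, beside 2.45% of all genes tested), ATP6V0D1, CTSH, MAP1LC3A and SQSTM1. Both lay at least 1 unit below them for 4 more (6.35%, beside 8.26%), ATG12, ATG4C, ATP6V1C1 and CTSC. Nalm30 was the highest of the 13 lines for 16 of the 63 genes (25.4%, beside 14.3% of all genes). 697 was the lowest line for 11 (17.5%, beside 9.75%), and Nalm16 for 16 (25.4%, beside 27.7%). Jurkat was the highest for 9 (14.3%, beside 8.68%) and the lowest for none (beside 2.99%). These counts are descriptions, as the 2 lines were singled out from the arrays themselves.

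TFEB and TFE3 bind a palindromic box, CACGTG, often with flanking bases that give TCACGTGA. Promoters of 57 of the 74 genes were found among RefSeq promoters of build GRCh38.p14, each reaching from 250 bases before the start site to 50 bases after it. The other genes were not searched, among them the called genes CTSW, CTSS and LAMP3, and also LAMP2, CTSB, CTSO and ATP6V1A. CACGTG stood in 10 of the 57 (17.5%), beside 7.43% of 27305 promoters. TCACGTGA, which contains the first motif, stood in 5 (8.77%), beside 1.04%. Both read the same on either strand. Among the 57 searched, the 5 genes with TCACGTGA were ATG3, ATP6V0D1, ATP6V1G1, CTSA and LAMP1.

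The promoters of 4 of them are shown, since ATP6V1G1 differed from the others in which lines were high. The sequences run 5′ to 3′ on the strand of the gene, with each match in capitals. They were LAMP1 (chr13:113296989-113297288, plus strand), CTSA (chr20:45891085-45891384, plus strand), ATP6V0D1 (chr16:67481108-67481407, minus strand) and ATP6V1G1 (chr9:114587519-114587818, plus strand).
LAMP1: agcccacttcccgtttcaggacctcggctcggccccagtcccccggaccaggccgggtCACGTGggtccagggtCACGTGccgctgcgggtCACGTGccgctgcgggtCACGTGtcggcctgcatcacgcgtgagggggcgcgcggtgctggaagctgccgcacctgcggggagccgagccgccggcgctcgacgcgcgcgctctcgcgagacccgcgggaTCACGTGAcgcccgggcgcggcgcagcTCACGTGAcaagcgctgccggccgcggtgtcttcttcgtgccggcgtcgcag
CTSA: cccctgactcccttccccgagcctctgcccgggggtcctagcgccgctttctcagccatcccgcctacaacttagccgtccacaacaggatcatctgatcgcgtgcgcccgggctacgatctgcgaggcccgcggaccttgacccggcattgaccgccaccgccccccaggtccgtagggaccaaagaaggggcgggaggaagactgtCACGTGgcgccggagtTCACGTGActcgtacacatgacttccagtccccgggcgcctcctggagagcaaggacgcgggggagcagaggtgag
ATP6V0D1: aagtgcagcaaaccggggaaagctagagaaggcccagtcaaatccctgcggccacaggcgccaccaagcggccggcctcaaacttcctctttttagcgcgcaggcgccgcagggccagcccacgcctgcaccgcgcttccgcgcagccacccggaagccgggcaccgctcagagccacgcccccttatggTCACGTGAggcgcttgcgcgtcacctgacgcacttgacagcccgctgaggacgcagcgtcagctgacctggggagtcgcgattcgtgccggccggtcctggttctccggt
ATP6V1G1: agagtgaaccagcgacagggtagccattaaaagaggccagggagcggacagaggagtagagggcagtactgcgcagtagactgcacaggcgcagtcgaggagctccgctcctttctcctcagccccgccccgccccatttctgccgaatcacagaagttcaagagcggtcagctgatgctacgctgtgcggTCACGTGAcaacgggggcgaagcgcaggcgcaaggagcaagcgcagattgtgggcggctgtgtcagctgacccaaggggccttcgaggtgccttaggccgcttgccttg

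LAMP1 held 6 copies of CACGTG, CTSA 2, and ATP6V0D1 and ATP6V1G1 1 each. LAMP1, CTSA and ATP6V0D1 were all highest in Nalm30 and next highest in Nalm16. For CTSA, which encodes a carboxypeptidase that protects lysosomal sialidase, these levels were 9.66 and 9.37, beside 7.09 to 8.63 in the other lines. ATP6V1G1 was instead lowest in Nalm16 (8.67) and Nalm30 (9.26), beside 9.91 to 10.49 elsewhere, as was ATG3 (8.43 and 9.45, beside 9.92 to 10.57). The 5 genes that share the longer box thus did not share one order over the lines.

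Other genes of the pathway, from lists that hold none of the genes above, were counted in the same fit. Of 38 lysosomal hydrolases and storage proteins tested, 3 passed (7.63% of all genes did), and 29 had lower means in T-ALL (47.0% of all genes did). Their median difference was -0.40. LGMN, an asparaginyl endopeptidase that processes cathepsins, was higher in T-ALL by 3.42 (SE 0.457, adjusted p 0.000395), from 4.44 ± 0.831 (SD, n = 6) to 7.86 ± 0.933 (SD, n = 7) by limma. The sulfatase ARSG was higher in T-ALL by 1.60 and the mannosidase MAN2B1 had a difference of -1.14. Of 38 lysosomal membrane and sorting proteins 2 were higher in T-ALL and 4 in BCP-ALL, among them SCARB2 (-1.83), the carrier of glucocerebrosidase, VPS18 (-1.41), a tethering subunit, and LAPTM4A (-0.59). Of 39 other autophagy genes 4 passed, among them DRAM1 (-2.10), NBR1, a receptor like SQSTM1 (1.38), and BCL2 (-1.74), which binds BECN1.

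Of 38 genes listed as regulators of mTORC1 and of the TFEB family 1 passed. It was FOXO1, a transcription factor and not a lysosomal protein, with a difference of -4.01. Of 11 accessory and assembly genes of the V-ATPase 1 passed, ROGDI (-1.40), while the median of the list was 0.68. Of 9 cystatins and other protease inhibitors 1 passed, SPINT1 (-1.89), which is not a cystatin. All 9 had lower means in T-ALL, beside 47.0% of all genes. These 9 were the ones that met the filter, of 17 measured. The calls of all these lists stand beside 7.63% of all genes tested. The BCP-ALL mean lay near the floor for LGMN (4.44) and ARSG (4.67). The T-ALL mean did so for DRAM1 (4.53), FOXO1 (4.37) and SPINT1 (4.45). Which lineage carried such genes through the filter was not counted. Their calls are therefore no support for a share among the genes tested. No values without the close pairs are given for these lists.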

How the data were processed

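Total RNA of 13 lines, 1 array each, was hybridised to Affymetrix HG-U133 Plus 2.0 arrays. The authors deposited log2 values made with iterPLIER+16 in Affymetrix Expression Console, version and scaling between arrays not given in the sources used here. Array medians ran from 5.05 to 5.37. Of 42450 probe sets, 38125 had 1 symbol in the platform annotation, 1742 had several and 2583 had none, and the last 2 kinds were left out. Signal brightness and the number of arrays limit the precision, and p-values measure the spread between lines. T-ALL was compared with BCP-ALL in 1 fit over 12560 genes (limma 3.58.1, lmFit and eBayes, R 4.3.3, threshold an adjusted p of 0.05). In simulated data, 38% of 100 genes changed by 1 log2 unit were recovered, and 86% of 100 at 2 units, with 9 false calls. The simulated lines were independent, without the close pairs or the floor, so these shares may not hold for the arrays. Named genes were those called, the 8 with the largest SD, 15 chosen for their roles and up to 3 called genes per other list. Other genes were named after their values were seen. The members and lists were chosen with earlier results of these data known. Alternatives covered probe set, filter, normalization, variance model, exact permutation, averaged pairs and lines left out. Leaving out each pair was added after seeing the data. Doubling time was not analysed here. Python 3.11.15, pandas 2.3.3, numpy 2.4.6 and matplotlib 3.10.9 were used.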

Additional observations from a re-analysis of the deposited data

Results flagged for a closer look

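Among the 26 genes chosen by the naming rule, 52 gene and lineage groups were examined for a line set apart from the rest of its lineage (Dixon's criterion, which chance meets in about 1 group in 20), and 3 met it. ATP6V0D1 in T-ALL was lowest in HPB-ALL, at 7.24. WIPI1 in T-ALL was highest in ALL-SIL, at 7.59. LAMP3 in BCP-ALL was highest in Nalm16, at 4.41, which is near the floor.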

How the results depend on the processing

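No paired analysis was possible because the replicate numbers only follow the order of the samples and pair no lines. The number of autophagy and lysosome genes called was 6 in all lines, 1 with P12-ICHIKAWA and TALL-1 averaged, 1 with both close pairs averaged, 1 without P12-ICHIKAWA and TALL-1, 2 without Nalm16 and Nalm30, 2 with no filter, 7 with quantile normalization, the mean of probe sets or the most variable probe set, and 1 to 8 with 1 line left out. Over all genes it was 958, and 610, 472 and 435 in the first 3 of these and 609 to 1223 with 1 line left out. With 1 line left out, ATP6V1G2 passed in 7 of 13 fits, ATG16L2 in 4, LAMP3 and CTSS in 3 each, ATP6V0D1 in 2 and CTSW in 13. CTSW kept its direction and its call in all 25 alternatives. Medians moved to 0.17 for the LAMP genes with no filter and 0.0881 for V1 subunits without Nalm16 and Nalm30. They moved to 0.24 for the other autophagy genes by the most variable probe set. For the list of cystatins and other protease inhibitors the median moved to -0.57 with expression in at least 6 lines. Signs turned without Nalm16 and Nalm30 for 11 of the 63 genes, also for ATG12, ATG14, ATG4D, ATP6V1C1, ATP6V1G1, CTSK and MAP1LC3A, and the medians moved to 0.17 for the conjugation enzymes and 0.0315 for the initiation genes. Among the named genes they turned for CTSH (0.32), TFE3 (0.0143), CTSD (0.44, and 0.14 with both pairs averaged) and MAP1LC3B (-0.36). MAP1LC3B was also negative with P12-ICHIKAWA and TALL-1 averaged (-0.0199), both pairs averaged (-0.17), quantile normalization (-0.11), median centring (-0.0091), the mean of probe sets (-0.0777) and without P12-ICHIKAWA and TALL-1 (-0.0585). BECN1 was negative with quantile normalization (-0.10), median centring (-0.001), the mean of probe sets (-0.0567) and the most variable probe set (-0.27). ATG7 was positive with P12-ICHIKAWA and TALL-1 averaged (0.0001) or left out (0.0278) and by the mean of probe sets (0.0151). With 1 line left out the median of that inhibitor list ran from -0.72 to -0.13. The differences then ran from -0.0938 to 0.11 for BECN1 and -0.11 to 0.13 for ATG7. They ran from -0.20 to 0.0984 for MAP1LC3B and -0.23 to 0.20 for CTSD. The cause of these changes was not tested. Of 85 other probe sets of these genes, 31 correlated with the one used at r under 0.5.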
